A study of Mus musculus with 6 samples.

Results

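Collagen chain genes were taken from the deposited table as every gene whose symbol reads Col, digits, a, digits, which gave 44 genes out of 47086 gene loci. For 2 of these symbols, *Col11a2* with all of its loci at 0 and *Col16a1*, the table held several loci, and the one with the highest mean was used. Total RNA of primary hippocampal cultures was sequenced after 14 days in vitro. The 3 WT libraries and the 3 *Fmr1* KO libraries carry the same strain label, C57BL/6, and no agent is given for either genotype. *Fmr1* is the gene of FMRP, which binds mRNAs in neurons and whose absence causes fragile X syndrome. The cultures came from newborn pups and hold neurons together with other cells of the hippocampus, so a level is that of the whole dish. The sources used here do not state the *Fmr1* allele, the litter behind each library, or whether the 3 libraries of a genotype come from separate cultures, so p-values measure only the spread between these libraries.

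Collagens are secreted or membrane proteins whose chains wind around one another into a triple helix. Fibrillar collagens form the fibrils of connective tissue, collagen IV forms the net of basement membranes, and collagen VI forms beaded filaments beside them. FACIT chains sit on the surface of fibrils, and transmembrane collagens are anchored in the cell membrane. In the brain, collagens are best known from vessel walls and meninges, and some chains, such as *Col19a1* and *Col25a1*, are made by neurons. By class, the 44 genes comprised 11 fibrillar, 6 basement membrane, 6 collagen VI, 9 FACIT and 4 transmembrane chains and 8 others.

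The values are FPKM, fragments scaled by transcript length and by the mapped fragments of the library, so levels may be compared between genes. Of the 44 genes, 20 had a mean of at least 1 FPKM in either genotype and were tested together with 13195 loci of that kind. The test was limma on log2(FPKM + 0.1), and log2 changes and standard errors (SE) are on that scale, as the libraries labelled KO minus WT. The targeted gene gave no check of the labels. *Fmr1* was at 19.0, 19.5 and 19.7 FPKM in WT and at 23.1, 21.8 and 18.5 FPKM in the libraries labelled KO, so the genotypes are named here by their labels throughout. Absolute depth is unknown. From the most common low values, 1 fragment was worth between 1.10 and 1.34 times as much FPKM in WT replicate 1 as in the other libraries, so WT replicate 1 had the fewest fragments for its scale. Replicate 1 was the lowest WT library in 10 of the 20 tested chains and the lowest library labelled KO in 14, against 37.2% and 35.5% of all tested loci.

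Promoter sequences are shown for the chain pairs whose genes lie next to each other and whose products assemble together, *Col4a1* with *Col4a2* and *Col6a1* with *Col6a2*, since their levels are compared below. Each window has 300 bases, from 250 before to 50 after a RefSeq start site (GRCm38.p6), and is written 5′ to 3′ along the strand of its gene. Capitals mark a CCAAT box (CCAAT, or ATTGG on the other strand) or a GC box (GGGCGG, or CCGCCC).
Col4a1, chr8:11312777-11313076, minus strand: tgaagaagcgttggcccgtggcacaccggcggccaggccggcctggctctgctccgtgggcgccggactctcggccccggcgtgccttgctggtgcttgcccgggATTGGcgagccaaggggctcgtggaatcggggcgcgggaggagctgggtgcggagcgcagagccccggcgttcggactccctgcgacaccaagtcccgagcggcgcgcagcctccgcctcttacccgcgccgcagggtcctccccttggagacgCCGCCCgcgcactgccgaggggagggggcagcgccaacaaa
Col4a2, chr8:11312555-11312854, plus strand: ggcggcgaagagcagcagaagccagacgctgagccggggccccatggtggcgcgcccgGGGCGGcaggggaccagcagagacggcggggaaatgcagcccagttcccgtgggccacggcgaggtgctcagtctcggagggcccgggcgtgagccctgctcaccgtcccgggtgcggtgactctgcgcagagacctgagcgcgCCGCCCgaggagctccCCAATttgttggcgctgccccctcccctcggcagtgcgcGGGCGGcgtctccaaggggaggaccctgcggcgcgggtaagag
Col6a1, chr10:76725995-76726294, minus strand: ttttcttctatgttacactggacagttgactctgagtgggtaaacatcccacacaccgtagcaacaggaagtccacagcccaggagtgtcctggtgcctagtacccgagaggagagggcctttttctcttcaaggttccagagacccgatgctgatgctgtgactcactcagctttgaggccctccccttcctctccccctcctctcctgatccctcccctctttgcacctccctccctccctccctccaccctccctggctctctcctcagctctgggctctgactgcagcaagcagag
Col6a2, chr10:76623355-76623654, minus strand: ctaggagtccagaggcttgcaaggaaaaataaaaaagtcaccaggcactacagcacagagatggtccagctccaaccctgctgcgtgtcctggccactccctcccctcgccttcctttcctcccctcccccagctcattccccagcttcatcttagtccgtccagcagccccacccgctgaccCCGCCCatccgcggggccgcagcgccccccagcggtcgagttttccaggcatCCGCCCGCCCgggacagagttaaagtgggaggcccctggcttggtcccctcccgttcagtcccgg

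The *Col4a1* and *Col4a2* start sites lay 21 bases apart on opposite strands, and their windows shared 78 bases. The gene models overlap by 85 bases, and whether the authors counted by strand is not given in the sources used here. Both windows held a CCAAT box and a GC box, 1 GC box for *Col4a1* and 3 for *Col4a2*. The GC box of *Col4a1* lies in the shared bases and is also 1 of those 3. The collagen VI pair is arranged differently. *Col6a2* and *Col6a1* lie on the same strand of chromosome 10 with 85162 bases between the genes. The *Col6a1* window held none of the motifs searched. The *Col6a2* window shown held 3 GC boxes, of which 2 overlap, and its other RefSeq window, at chr10:76623581-76623880, held 1. RefSeq promoters matched 35 of the 44 symbols and 14 of the 20 tested ones, the latter with 15 windows. A GC box was present in 11 of those 15 windows (73.3%), against 35.7% of all 32851 promoter windows. A CCAAT box was present in 6 of the 15 (40%), against 37.4% of all. A TATA box (TATAAA, or TTTATA) was in 0 of the 15, against 13.6% of all. Over all 38 collagen windows the shares were 60.5% for the GC box, 34.2% for the CCAAT box and 13.2% for the TATA box. The 15 windows belong to chains above the minimum, while the 32851 were not limited in that way. These are matches of letters and were not tested as binding sites.

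Summed over the 44 genes, collagen FPKM was 131 ± 2.81 (SD, n = 3) in WT and 133 ± 6.04 (SD, n = 3) in the libraries labelled KO, a difference smaller than the spread between libraries. The sum was carried by few genes. *Col6a1* made up 17.2% of it, *Col4a1* 11.8%, *Col25a1* 10.5%, *Col4a2* 9.37% and *Col26a1* 6.59%, which together come to 55.4%. Collagen I, the main collagen of most connective tissue, was low, with *Col1a1* between 0.367 and 0.745 FPKM.

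**Figure D1:**
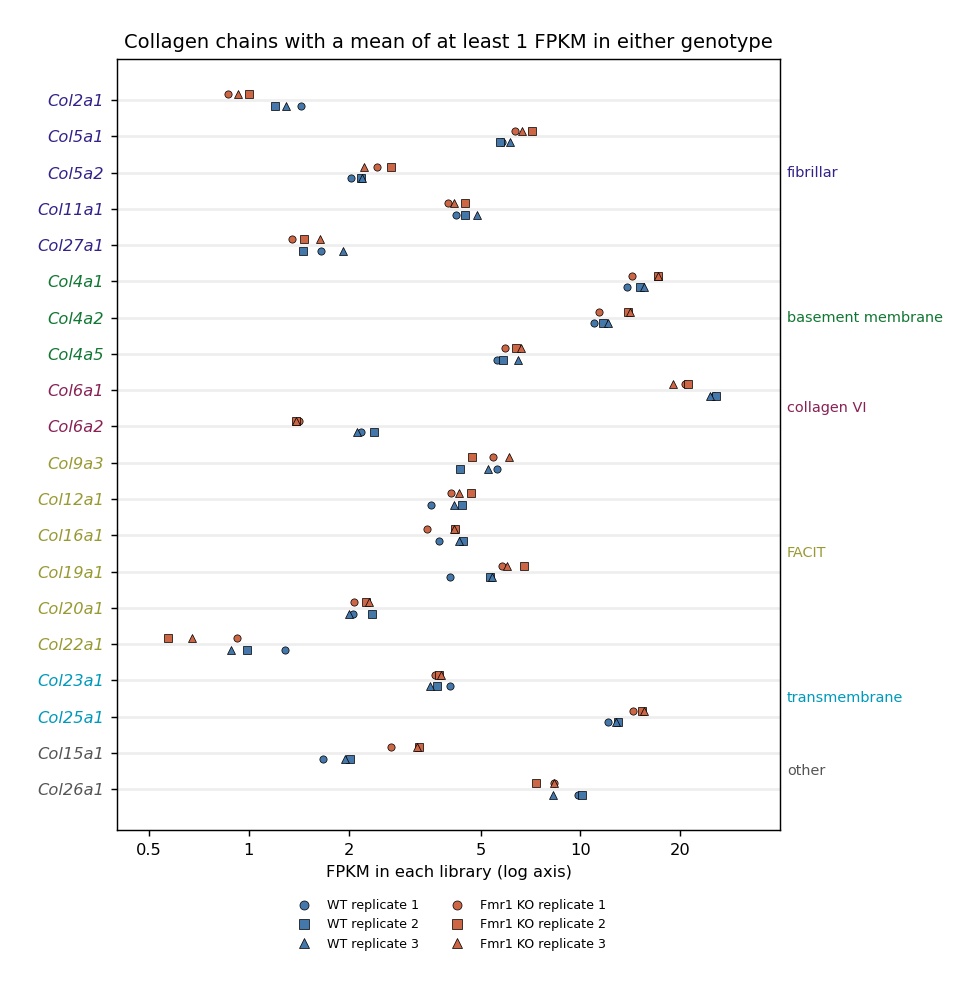
FPKM in each library on a log axis for the 20 collagen chains with a mean of at least 1 FPKM in either genotype, grouped by class, with 1 point for each of the 3 WT (blue) and 3 Fmr1 KO (orange) libraries. Col6a1 was the highest chain at 19.0 to 25.6 FPKM and Col22a1 among the lowest at 0.571 to 1.28 FPKM.

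While this FPKM total differed little, single chains differed in both directions. No chain passed an adjusted p of 0.05 over all tested loci, a threshold that 0.265% of the 13195 tested loci passed. An unadjusted p below 0.05 was found for 8 of 20 chains (40%), against 14.8% of all tested loci. *Col15a1*, *Col25a1*, *Col19a1* and *Col5a1* had the higher level in the libraries labelled KO, 4 of 20 against 6.99% of all loci. *Col6a1*, *Col6a2*, *Col2a1* and *Col26a1* had the lower level, 4 of 20 against 7.77% of all loci. In 8 of 20 chains the 3 libraries labelled KO lay entirely on 1 side of the 3 WT libraries, which was so for 21.1% of all tested loci. These were *Col5a1*, *Col5a2*, *Col19a1*, *Col25a1* and *Col15a1* on the higher side and *Col2a1*, *Col6a1* and *Col6a2* on the lower. The median log2 change was 0.06 over the 20 chains and 0.005 over all tested loci. Without WT replicate 1, the count fell to 2 higher (*Col15a1*, *Col25a1*) and 2 lower (*Col6a1*, *Col6a2*), and without replicate 2 of the libraries labelled KO the higher chains were again only *Col15a1* and *Col25a1*, with *Col2a1*, *Col6a1* and *Col6a2* lower. *Col15a1*, *Col25a1*, *Col6a1* and *Col6a2* stayed under an unadjusted p of 0.05 whichever of the 6 libraries was left out.

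**Figure D2:**
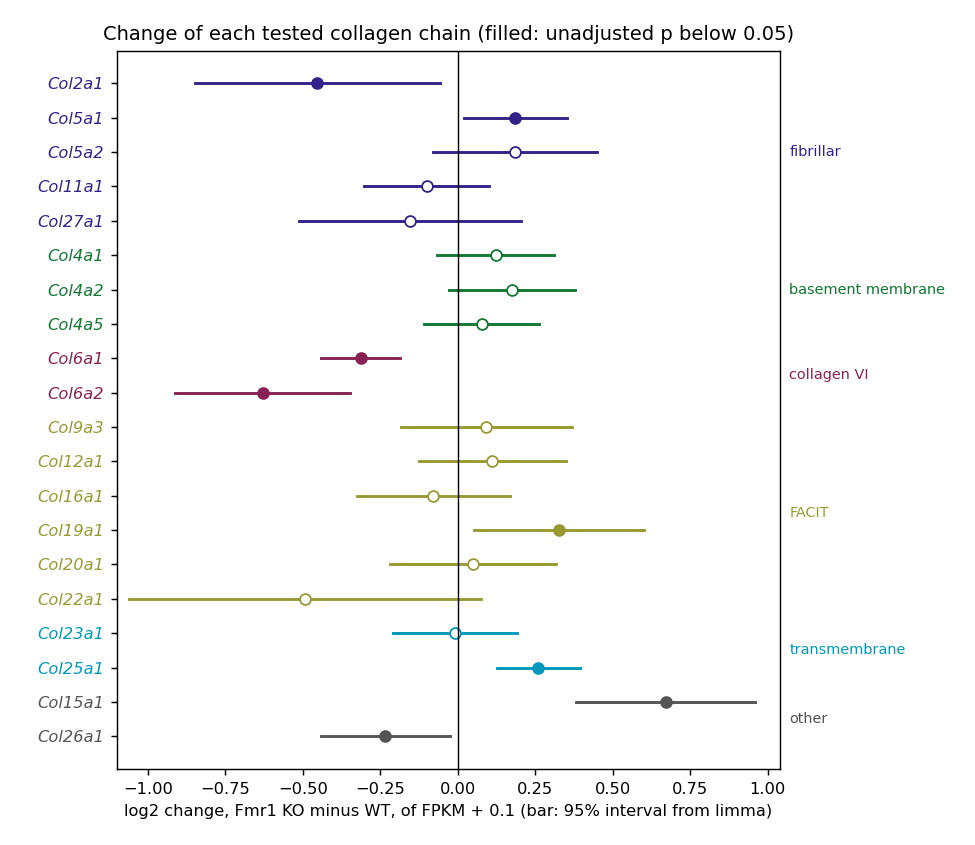
Log2 change (libraries labelled Fmr1 KO minus WT, of FPKM + 0.1) with its 95% interval from limma for the 20 tested chains, coloured by class, filled where the unadjusted p was below 0.05. The filled points are the 4 higher chains (Col15a1, Col25a1, Col19a1, Col5a1) and the 4 lower ones (Col6a1, Col6a2, Col2a1, Col26a1), and 11 of the 20 points lie above 0.

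Collagen VI was the class with the lower level in the libraries labelled KO. *Col6a1* and *Col6a2*, which join a longer chain in the collagen VI molecule, were both below every WT library. *Col6a1* (XLOC_025441, chromosome 10, 76708792 to 76726044) was at 25.3, 25.6 and 24.5 FPKM in WT and at 20.6, 21.1 and 19.0 FPKM in the libraries labelled KO. The groups did not overlap, and the log2 change was −0.31 ± 0.06 (SE; limma, Benjamini-Hochberg adjusted p = 0.072). *Col6a2* (XLOC_025440, chromosome 10, 76595756 to 76623630) was at 2.17, 2.38 and 2.11 FPKM in WT and at 1.42, 1.39 and 1.39 FPKM in the libraries labelled KO. Here too every library labelled KO was below every WT library, with a log2 change of −0.63 ± 0.12 (SE; adjusted p = 0.0766 from limma). With limma fitted without the mean-variance trend the adjusted p of *Col6a2* was 0.0277, the only chain to pass under any setting tried.

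The long chain *Col6a3* was not separated in this way. It stood at 0.448, 0.531 and 0.481 FPKM in WT and at 0.570, 0.488 and 0.470 FPKM in the libraries labelled KO, under the minimum for the test and with overlapping groups. Of the other long chains, *Col6a4* was at 0.175 to 0.270 FPKM in WT and 0.0751 to 0.118 FPKM in the libraries labelled KO, and was singled out after its values were seen. *Col6a5* and *Col6a6* stayed under 0.14 FPKM in every library. Summed over its 6 genes, collagen VI was at 28.2 ± 0.758 FPKM in WT and 22.4 ± 1.19 FPKM in the libraries labelled KO (SD, n = 3), and the groups did not overlap. *Col6a1* alone had means of 25.2 and 20.2 FPKM, so the sum mostly repeats that gene.

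*Col6a1* was also far above *Col6a2*, although the molecule takes both. The ratio of *Col6a1* to *Col6a2* within a library was 11.7, 10.7 and 11.6 in WT and 14.5, 15.1 and 13.7 in the libraries labelled KO. The groups did not overlap, and the mean ratio was 27.6% higher in the libraries labelled KO, with a two-sided exact permutation p of 0.1, the smallest that 3 against 3 libraries allow, and 0.15 after Benjamini-Hochberg adjustment over the 3 ratios tested.

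**Figure D3:**
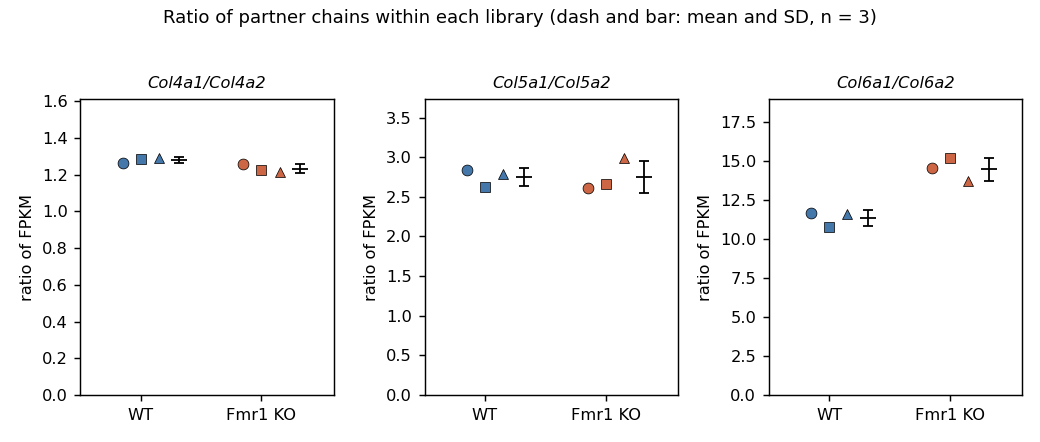
Ratio of FPKM of partner chains within each of the 3 WT and 3 Fmr1 KO libraries, with mean and SD (n = 3), on axes that start at 0. The Col6a1/Col6a2 ratio has a mean of 11.3 in WT and 14.5 in the libraries labelled KO with no overlap, Col4a1/Col4a2 has means of 1.28 and 1.23, also with no overlap, and Col5a1/Col5a2 has means of 2.76 and 2.75.

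Of the basement membrane chains, *Col4a1*, *Col4a2* and *Col4a5* passed the minimum, and all 3 overlapped between the genotypes. *Col4a1* and *Col4a2*, which form the collagen IV molecule found in nearly all basement membranes, were at 13.9 to 15.6 and 11.0 to 12.1 FPKM in WT. In the libraries labelled KO, *Col4a1* was at 14.3, 17.1 and 17.2 FPKM and *Col4a2* at 11.4, 14.0 and 14.1 FPKM. For both genes replicate 1 was the lowest library of its genotype. The log2 changes were 0.12 ± 0.08 for *Col4a1* and 0.17 ± 0.09 for *Col4a2* (SE; adjusted p = 0.537 and 0.408 from limma). Without replicate 1 of the libraries labelled KO both had an unadjusted p below 0.05, with log2 changes of 0.21 and 0.27. Their ratio was 1.28 ± 0.0156 in WT and 1.23 ± 0.0229 in the libraries labelled KO, and its groups did not overlap (SD, n = 3; two-sided exact permutation p = 0.1, adjusted over the 3 ratios 0.15).

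*Col4a5*, a chain of the X chromosome that is mutated in Alport syndrome, was at 5.60, 5.83 and 6.47 FPKM in WT and at 5.91, 6.38 and 6.60 FPKM in the libraries labelled KO (log2 change 0.08 ± 0.08 SE, adjusted p = 0.711 from limma). Its neighbour *Col4a6*, which is transcribed in the opposite direction, was at 0.752 to 0.967 FPKM in WT and 0.542 to 0.778 FPKM in the libraries labelled KO. *Col4a3* and *Col4a4*, the other Alport chains, did not exceed 0.154 FPKM, and *Col4a3* lay entirely higher in the libraries labelled KO, at 0.0298 to 0.0704 FPKM against 0.0196 to 0.0260 FPKM in WT. The class sum was 33.4 ± 1.96 FPKM in WT and 36.5 ± 3.55 FPKM in the libraries labelled KO (SD, n = 3).

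The fibrillar class was led by the collagen V and XI chains, which are known to start and limit the width of fibrils, rather than by collagens I, II and III. *Col5a1* was at 5.79, 5.73 and 6.14 FPKM in WT and at 6.35, 7.13 and 6.65 FPKM in the libraries labelled KO. Every library labelled KO was above every WT library, with a log2 change of 0.18 ± 0.07 (SE; adjusted p = 0.292 from limma). *Col5a2*, its partner chain, was at 2.04, 2.18 and 2.20 FPKM in WT and at 2.44, 2.68 and 2.23 FPKM in the libraries labelled KO, also without overlap (log2 change 0.18 ± 0.12 SE, adjusted p = 0.503 from limma). Both collagen V chains had nearly the same change, and their ratio was 2.76 ± 0.115 in WT and 2.75 ± 0.206 in the libraries labelled KO (SD, n = 3; two-sided exact permutation p = 0.9, also 0.9 after adjustment).

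*Col2a1*, the main chain of cartilage fibrils, was lower in the libraries labelled KO. It was at 1.43, 1.20 and 1.30 FPKM in WT and at 0.863, 1.0 and 0.925 FPKM in the libraries labelled KO. The groups did not overlap, with a log2 change of −0.45 ± 0.17 (SE; adjusted p = 0.283 from limma). *Col11a1*, which joins *Col2a1* in cartilage fibrils, overlapped between the genotypes, at 4.23 to 4.88 FPKM in WT and 4.0 to 4.48 FPKM in the libraries labelled KO (log2 change −0.10, adjusted p = 0.647 from limma). *Col27a1* was at 1.45 to 1.92 and 1.35 to 1.64 FPKM (log2 change −0.16, adjusted p = 0.697 from limma).

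Collagen I and III, the bulk of fibrous tissue, were near the floor. *Col1a1* was at 0.510, 0.367 and 0.376 FPKM in WT and at 0.419, 0.745 and 0.631 FPKM in the libraries labelled KO, with overlap. *Col1a2* was at 0.374, 0.263 and 0.272 FPKM in WT and at 0.411, 0.591 and 0.454 FPKM in the libraries labelled KO, without overlap. *Col5a3* was at 0.467 to 0.581 and 0.564 to 0.690 FPKM, *Col3a1* stayed under 0.4 FPKM, and *Col24a1* and *Col11a2* were near or at 0. The fibrillar sum was 17.1 ± 0.651 FPKM in WT and 17.9 ± 1.20 FPKM in the libraries labelled KO (SD, n = 3).

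**Figure D4:**
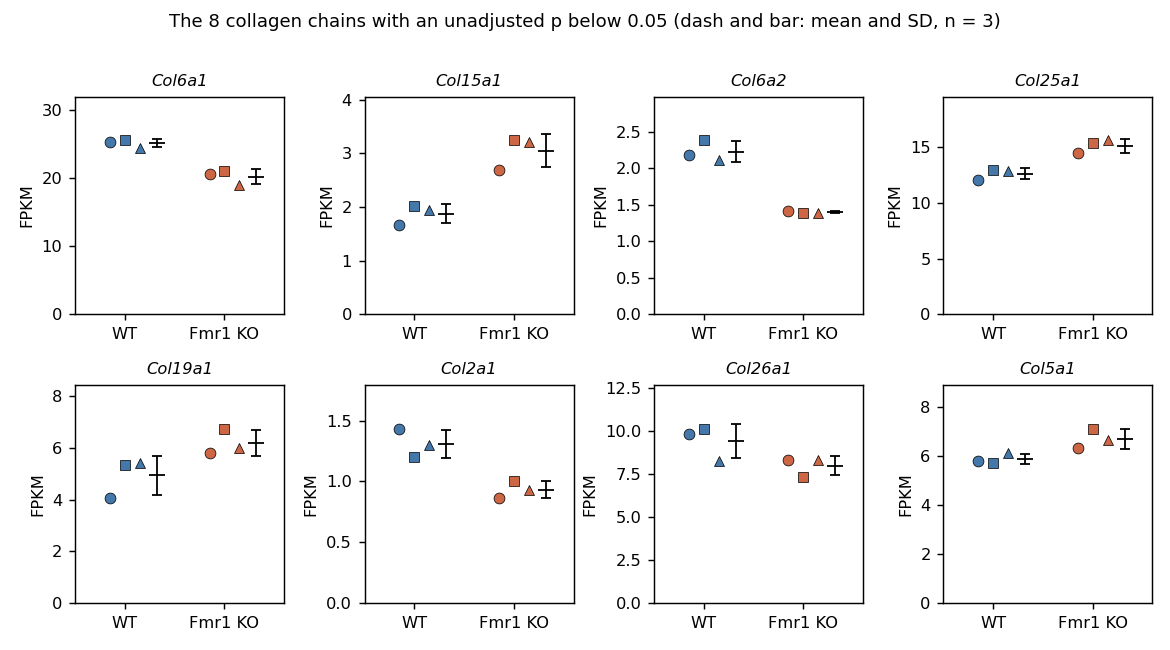
FPKM per library, with mean and SD (n = 3), for the 8 chains with an unadjusted p below 0.05, on axes that start at 0. The 3 libraries labelled Fmr1 KO lie fully above WT for Col15a1, Col25a1, Col19a1 and Col5a1 and fully below for Col6a1, Col6a2 and Col2a1, while Col26a1 overlaps, at 8.28 FPKM in the lowest WT library against 8.31 FPKM in the highest library labelled KO.

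*Col25a1* is a transmembrane collagen whose shed part is found in amyloid plaques, and it ranked 3 in abundance among the collagen genes. It was at 12.1, 12.9 and 12.8 FPKM in WT and at 14.4, 15.3 and 15.6 FPKM in the libraries labelled KO. Each library labelled KO was above each WT library, a difference of 19.9% in the means (log2 change 0.26 ± 0.06 SE, adjusted p = 0.112 from limma). *Col19a1*, a FACIT chain made by hippocampal interneurons, was at 4.04, 5.34 and 5.41 FPKM in WT and at 5.80, 6.74 and 5.99 FPKM in the libraries labelled KO. The groups did not overlap, but WT replicate 1 lay well below the other WT libraries (log2 change 0.33 ± 0.12 SE, adjusted p = 0.265 from limma). Without it the log2 change was 0.19 and the unadjusted p was no longer below 0.05. Markers of inhibitory neurons summed to 418 to 448 FPKM in WT and 397 to 453 FPKM in the libraries labelled KO. Of these, 1 of 8, *Npy*, lay entirely lower, against 21.1% of all tested loci without overlap in either direction. At an unadjusted p below 0.05 from limma, 2 of the 7 tested, *Npy* and *Vip*, were lower and 0 higher. All tested loci gave 7.77% lower and 6.99% higher. *Vip* overlapped, at a log2 change of −0.40 ± 0.13 (SE; adjusted p = 0.231 from limma). The part of inhibitory neurons in these values was not tested.

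The other transmembrane chain above the minimum, *Col23a1*, overlapped between the genotypes, at 4.05, 3.70 and 3.51 FPKM in WT and 3.63, 3.74 and 3.81 FPKM in the libraries labelled KO. Its log2 change was −0.01, with a 95% interval from −0.21 to 0.20 and an adjusted p of 0.974 from limma, the highest of the 20. *Col13a1* and *Col17a1* stayed under 0.5 FPKM. The transmembrane sum was 16.7 ± 0.284 FPKM in WT and 19.2 ± 0.606 FPKM in the libraries labelled KO (SD, n = 3), without overlap, and *Col25a1* made up most of it.

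The other FACIT chains above the minimum overlapped between the genotypes. *Col9a3*, a chain of collagen IX, was at 4.35 to 5.59 FPKM in WT and 4.71 to 6.08 FPKM in the libraries labelled KO (log2 change 0.09, adjusted p = 0.776 from limma). Its partners were far lower. *Col9a1* was at 0.982, 0.922 and 0.861 FPKM in WT and at 0.685, 0.672 and 0.657 FPKM in the libraries labelled KO, without overlap. *Col9a2* was at 0.543 to 0.726 and 0.372 to 0.721 FPKM. The *Col9a3* gene model overlaps that of *Tcfl5* by 237 bases. *Col12a1* (log2 change 0.11, adjusted p = 0.666), *Col16a1* (−0.08, 0.783) and *Col20a1* (0.05, 0.892) lay between 2.01 and 4.67 FPKM. *Col22a1*, a chain of tissue junctions, was at 1.28, 0.989 and 0.880 FPKM in WT and at 0.922, 0.571 and 0.674 FPKM in the libraries labelled KO, with overlap and a wide error (log2 change −0.49 ± 0.25 SE, adjusted p = 0.405 from limma). The FACIT sum was 23.0 ± 0.864 FPKM in WT and 24.1 ± 1.13 FPKM in the libraries labelled KO (SD, n = 3).

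Of the 8 remaining chains, *Col15a1* and *Col26a1* passed the minimum. *Col15a1* (XLOC_008600, chromosome 4, 47207655 to 47313167) encodes a basement membrane-associated collagen that carries sugar chains. It was at 1.67, 2.01 and 1.95 FPKM in WT and at 2.69, 3.25 and 3.22 FPKM in the libraries labelled KO. The groups did not overlap, and the mean was 62.5% higher (log2 change 0.67 ± 0.13 SE, adjusted p = 0.0753 from limma). Several long noncoding RNA genes overlap the *Col15a1* gene model, so fragments could be split between them. Its close relative *Col18a1*, the source of endostatin, was at 0.793, 0.725 and 0.715 FPKM in WT and at 0.550, 0.740 and 0.672 FPKM in the libraries labelled KO, with overlap.

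*Col26a1*, which carries an EMI domain, was at 9.87, 10.1 and 8.28 FPKM in WT and at 8.30, 7.35 and 8.31 FPKM in the libraries labelled KO. WT replicate 3 fell among the libraries labelled KO, and the log2 change was −0.23 ± 0.09 (SE; adjusted p = 0.291 from limma). The sum of the 8 remaining chains was 12.8 ± 1.0 FPKM in WT and 12.9 ± 0.597 FPKM in the libraries labelled KO (SD, n = 3), with *Col15a1* higher and *Col26a1* lower within it.

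In all, 24 chains stayed below the minimum for the test, none of them above 0.982 FPKM in any library. Of these, 16 were under 0.5 FPKM in every library, 6 under 0.1 FPKM, and *Col11a2* was listed at 0 throughout. The libraries labelled KO lay entirely above WT in 5 of the 24 (*Col1a2*, *Col4a3*, *Col7a1*, *Col8a1* and *Col8a2*) and entirely below in 2 (*Col6a4* and *Col9a1*). Of the 13786 loci below the minimum and above 0 in some library, 8.03% had groups that did not overlap. *Col7a1* shares its locus in the table with *Mir711*.

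**Figure D5:**
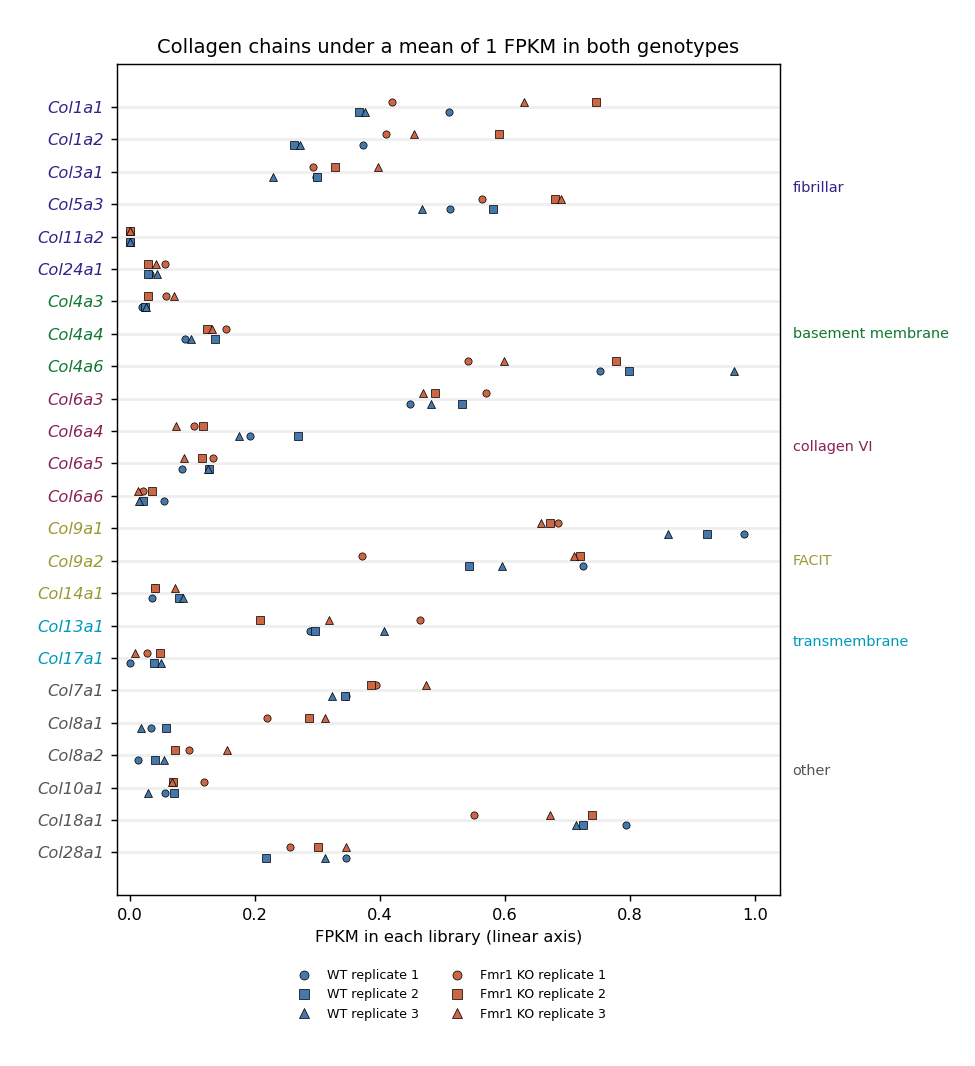
FPKM per library on a linear axis for the 24 collagen chains with a mean under 1 FPKM in both genotypes, by class, with 1 point per WT (blue) and Fmr1 KO (orange) library. Col8a1 and Col8a2 lie higher, and Col9a1 and Col6a4 lower, in all 3 libraries labelled Fmr1 KO than in any WT library.

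The widest relative difference among them was in collagen VIII, which forms hexagonal nets beneath some epithelia and endothelia, and which was singled out after its values were seen. *Col8a1* was at 0.0338, 0.0589 and 0.0179 FPKM in WT and at 0.220, 0.287 and 0.313 FPKM in the libraries labelled KO, means 7.42 times apart. *Col8a2* was at 0.0134, 0.0401 and 0.0547 FPKM in WT and at 0.0954, 0.0733 and 0.157 FPKM in the libraries labelled KO, 3.01 times apart. In the fit with no FPKM minimum, *Col8a1* had an adjusted p of 0.149 and *Col8a2* one of 0.461 from limma. Beside this, the choroid plexus gene *Ttr* was at 0, 0 and 0.0910 FPKM in WT and at 56.6, 52.0 and 60.7 FPKM in the libraries labelled KO. Of all loci, 21.1% above the minimum and 8.03% below it had groups that did not overlap, in either direction. Of the 8 choroid plexus markers listed, 4 lay entirely higher in the libraries labelled KO, and *Kl* was at 0 throughout. Their sum was 1.05 to 1.44 FPKM in WT and 53.6 to 63.7 FPKM in the libraries labelled KO, and without *Ttr* it was 0.957 to 1.44 FPKM in WT and 1.62 to 2.97 FPKM in the libraries labelled KO. Their part in the collagen VIII values was not tested.

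Genes that modify, fold, export, trim, crosslink or bind collagen chains were followed as a list of 47, of which 33 passed the minimum. At an unadjusted p below 0.05, 3 of the 33 were higher and 1 lower, against 6.99% and 7.77% of all loci, and 0 passed an adjusted p of 0.05. The median log2 change of the 33 was −0.003. *Fkbp10*, a prolyl isomerase of the endoplasmic reticulum that helps collagen fold, was at 8.56, 7.84 and 9.13 FPKM in WT and at 5.96, 6.08 and 6.20 FPKM in the libraries labelled KO. All libraries labelled KO were below WT, at a log2 change of −0.48 ± 0.07 (SE; adjusted p = 0.0511 from limma). *P3h3*, of the prolyl 3-hydroxylase family, was at 11.8, 10.3 and 11.2 FPKM in WT and at 13.3, 14.1 and 14.8 FPKM in the libraries labelled KO, all above WT (log2 change 0.34 ± 0.07 SE, adjusted p = 0.0913 from limma).

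By step, 2 of 18 modification and folding genes were higher and 1 lower at that threshold, the second higher gene, *Plod2*, with overlapping groups. None of the 11 export, trimming and crosslinking genes tested was past an unadjusted p of 0.05. Of the 4 receptor genes tested, 1 was higher at that threshold and 0 lower, against 6.99% and 7.77% of all tested loci. This was *Adgrg1*, a receptor that binds collagen III in the developing cortex. It was at 59.5, 58.5 and 64.9 FPKM in WT and at 65.3, 67.8 and 68.5 FPKM in the libraries labelled KO. The groups did not overlap, with a log2 change of 0.14 ± 0.05 (SE; adjusted p = 0.276 from limma). Among all 12 receptor genes listed, 3 lay entirely higher and 1 entirely lower in the libraries labelled KO. Groups did not overlap, in either direction, in 21.1% of all loci above the minimum and 8.03% below it.

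Collagens are made by several cell types that such a culture could hold, and in a bulk sample fewer cells of a type cannot be told apart from less RNA per cell. Summed fibroblast markers were at 52.7 to 56.7 FPKM in WT and 42.8 to 50.9 FPKM in the libraries labelled KO. Of the collagens, *Col6a1* and *Col6a2* were lower in the libraries labelled KO. Among the collagen I and III chains, all under the minimum, *Col1a2* lay entirely higher and *Col1a1* and *Col3a1* overlapped. Most of the fibroblast sum was *Dcn*, at 43.8, 43.2 and 39.0 FPKM in WT and 39.0, 35.5 and 30.1 FPKM in the libraries labelled KO. Of the 12 fibroblast markers, 4 were above the minimum and 2 of these, *Dcn* and *Fbln1*, were lower at an unadjusted p below 0.05, while *Igf2*, under the minimum, lay entirely higher. Of all tested loci, 7.77% were lower at that threshold. Mural markers summed to 12.1 to 14.0 FPKM in WT and 12.1 to 14.1 FPKM in the libraries labelled KO, and 2 of 10, *Tagln* and *Abcc9*, both under 1 FPKM, lay entirely lower in the latter. Of the 12 endothelial markers, 9 were under 1 FPKM in every library and *Cldn5* was at 0 throughout. The endothelial sum, 50.2 to 58.2 FPKM in WT and 58.2 to 62.6 FPKM in the libraries labelled KO, was nearly all *Slco1c1*, a thyroid hormone transporter that astrocytes also express and that lay entirely higher in the libraries labelled KO. *Pecam1* and *Tie1* lay entirely lower, with means 0.580 and 0.449 of the WT mean, and the other endothelial markers overlapped. Of all loci, 21.1% above the minimum and 8.03% below it had groups that did not overlap, in either direction.

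Markers of astrocytes summed to 1706 to 2014 FPKM in WT and 1768 to 1965 FPKM in the libraries labelled KO, and those of the oligodendrocyte lineage to 333 to 388 and 384 to 424 FPKM. In these lists 1 of 8 astrocyte markers lay entirely lower in the libraries labelled KO and 2 of 8 oligodendrocyte lineage markers entirely higher. Both of these counts are near the share of all loci without overlap, 21.1% above the minimum and 8.03% below it. At an unadjusted p below 0.05 from limma, 2 of 8 tested astrocyte markers, *Gja1* and *S100b*, were lower and 0 higher. Of the 6 oligodendrocyte lineage markers tested, 2 were higher at that threshold, *Pdgfra* and *Olig2*, and 0 lower. All tested loci gave 7.77% lower and 6.99% higher. Microglial markers summed to 5.94 to 7.84 FPKM in WT and 1.17 to 3.17 FPKM in the libraries labelled KO, with 5 of 10 entirely lower and *Aif1* and *Tmem119* at 0. The 3 microglial markers tested, *C1qa*, *C1qb* and *C1qc*, were all lower at an unadjusted p below 0.05 from limma. The part of any of these cell types in the collagen values was not tested.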

How the data were processed

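RNA-seq was done on total RNA from hippocampal cultures at 14 days in vitro, 3 WT and 3 *Fmr1* KO libraries, grouped by their labels. Per the methods and the submitters' processing notes, reads were clipped (Fastx Clipper), trimmed (sickle), mapped to GRCm38 with TopHat2 and built into genes with Cufflinks. The sources used here name no versions, annotation, strand setting or library scaling. The deposited values are FPKM per library made by the authors with Cufflinks and Cuffdiff. A count test does not suit FPKM and none was run, and because depth is unknown no counting interval is given. The columns of group values, fold changes, p-values and q-values of the authors' own comparison were not used.

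Loci with a mean of at least 1 FPKM in either genotype were fitted with limma 3.58.1 (R 4.3.3) on log2(FPKM + 0.1), with a term for genotype alone and variances moderated along the mean-variance trend. P-values were adjusted by Benjamini-Hochberg over 13195 loci. A pseudocount understates changes of low genes. The fit was tested on simulated data. Ratios of partner chains that both passed the minimum were compared by two-sided exact permutation tests. Every chain above the minimum is named, and chains below it where a library reached 0.5 FPKM. Of the pathway lists, genes with an unadjusted p below 0.05 and groups that did not overlap are named, since none passed adjustment. Exceptions to this rule, among them collagens named in a count, cell type markers and *Plod2*, were chosen after their values were seen. The collagen genes and all lists were chosen with earlier results of these data known. The result of one marker list is not reported here. Promoters and gene coordinates are those of RefSeq (GRCm38.p6).

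Alternatives tried were a pseudocount of 1 or 0.01, a minimum of 5 FPKM or none, centred libraries, no trend, each library left out, the replicate number as a block, and loci of a symbol summed.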

Additional observations from a re-analysis of the deposited data

How the results depend on the processing

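*Col6a1*, *Col6a2*, *Col15a1* and *Col25a1* kept their direction and an unadjusted p below 0.05 under every alternative that included them, with adjusted p from limma between 0.0502 and 0.207, 0.0277 and 0.264, 0.0520 and 0.273, and 0.0747 and 0.358. The number of chains past an adjusted p of 0.05 was 0 at first and 1 (*Col6a2*) without the mean-variance trend. The chains past an unadjusted p of 0.05 numbered 2 to 6 higher and 2 to 4 lower when 1 library was left out, against 4 and 4 with all libraries. Without WT replicate 1 there were 2 of each, and *Col19a1*, *Col5a1*, *Col2a1* and *Col26a1* were no longer among them. The number of lower chains was also 2 with a minimum of 5 FPKM, where *Col2a1* and *Col6a2* were too low to enter. Of the genes that process or bind collagen, 4 were past an unadjusted p of 0.05, 2 without the trend and 2 to 5 with 1 library left out. The log2 change of the *Col5a1*/*Col5a2* ratio, −0.00421, reversed to 0.000803 with 0.1 FPKM added to each chain and ranged from −0.0648 to 0.0329 when 1 library was left out. With 1 library left out, small log2 changes also reversed: *Col9a3* ranged from −0.0124 (without WT replicate 2) to 0.186, *Col16a1* from −0.152 to 0.00999 (without replicate 1 of the libraries labelled KO), and *Col23a1* from −0.0545 to 0.0464 (without WT replicate 1). The cause was not tested. The median log2 change of the chains lay between 0.01 and 0.12.

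The replicate numbers share no stated culture or litter, so they were not taken as pairs. For replicates 1, 2 and 3, deviations of same-numbered libraries correlated at 0.243, 0.058 and 0.080 across loci. Replicate 1 against replicates 2 and 3 of the other genotype gave −0.152 to −0.119, and replicate 2 against 3 gave 0.066 and 0.078. Deviations were taken from the mean of each genotype, so the 3 of a genotype sum to 0 at each locus. These correlations are therefore not independent, and a positive value for 1 pair forces lower values in others. Of the 20 tested chains, 9 were lowest in replicate 1 in both genotypes. Whether replicate 1 shared a source across genotypes was not tested. With the replicate block, 5 chains were higher (*Col4a2* added) and 3 lower (*Col2a1* lost) at an unadjusted p below 0.05, and 0 passed adjustment. 5 genes that process or bind collagen were past an unadjusted p of 0.05, and the median log2 change was 0.06.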
